A study of Homo sapiens with 6 samples.

Results

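FHOD3 is a formin gene on the long arm of chromosome 18, and its sites of thymidine glycol (Tg) were taken from 2 genome-wide lists, 1 of wild-type HEK293T cells and 1 of cells lacking NTHL1 and NEIL1. A site was included when its midpoint lay in FHOD3 (hg38 chromosome 18, 36297713 to 36780220) or within 300 kb of it, a window of 1083 kb. This gave 4 of the 3688 wild-type sites and 18 of the 9373 double-knockout sites, and 1 and 14 of these lay inside the gene. The sister gene FHOD1 (chromosome 16, 67229389 to 67247481) was taken for contrast and held no site in either list. FHOD3 was selected on the listed sites themselves, by the difference between its wild-type and double-knockout site counts, so the counts of 1 and 14 are a description and carry no test.

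HEK293T is a human embryonic kidney line carrying the SV40 large T antigen, and the double knockout is labelled NTHL1-/-,NEIL1-/- in that line. Both genotypes were grown without further treatment. Each had 2 NTHL1-labelled libraries and 1 input library, and each was deposited as 1 list with no value per library. No source used here gives the kind of disruption or says whether the knockout line is 1 clone, and the sites mark DNA, so they do not check a cell type or genotype label. With no replicate lists, differences between genotypes have neither an error over libraries nor a test.

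Formins are actin assembly proteins: their FH2 domain caps the growing end of an unbranched actin filament and stays with it as subunits are added. FHOD3 is best known from heart muscle, where it takes part in building and maintaining the thin filaments of the sarcomere, and FHOD1 is its broadly expressed relative. Thymidine glycol is an oxidised thymidine that stalls DNA polymerases, and the glycosylases NTHL1 and NEIL1 remove it at the start of base excision repair. In DPC-Seq added NTHL1 protein is tied covalently to the DNA where it has cut such a base out, so a listed site is a stretch of DNA enriched in these links.

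The lesion forms on thymine, and the DNA just before the start of FHOD3 holds little of it. The 250 bases before the start of FHOD3 (GRCh38.p14, chr18:36297463-36297712, plus strand) and of FHOD1 (chr16:67247482-67247731, minus strand), from RefSeq, are shown because neither overlapped a site although a double-knockout site lay close to the start of FHOD3. Capitals mark thymines on the strand of the gene, and a thymine of the other strand stands opposite each a.
FHOD3: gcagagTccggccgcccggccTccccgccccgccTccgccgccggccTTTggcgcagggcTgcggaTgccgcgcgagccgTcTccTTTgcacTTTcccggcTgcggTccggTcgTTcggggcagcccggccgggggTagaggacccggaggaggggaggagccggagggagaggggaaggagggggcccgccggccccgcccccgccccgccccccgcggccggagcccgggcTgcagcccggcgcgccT
FHOD1: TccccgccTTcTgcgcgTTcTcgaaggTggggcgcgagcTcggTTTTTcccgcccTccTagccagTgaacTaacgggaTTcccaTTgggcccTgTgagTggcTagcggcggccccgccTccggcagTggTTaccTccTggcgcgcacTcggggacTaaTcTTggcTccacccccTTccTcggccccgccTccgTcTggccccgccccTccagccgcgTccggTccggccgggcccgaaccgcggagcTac
The FHOD3 stretch has 24 thymines and 22 adenines, so 18.4% of its base pairs contain a thymine, against a median of 42.0% over 35116 RefSeq gene starts. Of those starts 1.68% had a lower share. The FHOD1 stretch has 48 thymines and 25 adenines (29.2%, with 18.1% of starts lower), and its 19.2% of thymine on the strand of the gene was near the median of 20.8%. None of the 10 gene starts in the window of FHOD3 (250 bases before to 50 after) overlapped a site of either list. Genome-wide the share of such starts with an overlap was 0.0968% for the wild-type list and 0.222% for the double-knockout list, so 0 of 10 is close to that background. The sequence of the sites themselves was not used here, and a relation between thymine content and listed sites was not tested.

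In wild type FHOD3 had a single site, well inside the gene. It lay at 36454114 to 36454414, 157 kb from the start of the gene, was 301 bp wide and had a fold enrichment of 7.18. Fold enrichment is the authors' own ratio of reads at the summit of a site to the peak caller's background. Whole reads were recovered from it and the site's p-value: 17 reads (95% Poisson interval 9.90 to 27.2, counting error only) stood on a background of 1.51 reads. By q this site ranked 499 in the wild-type list, so it was among the clearer sites. One site in a gene gives a Poisson interval of 0.0253 to 5.57, and the rate of wild-type sites on chromosome 18, 0.698 per Mb, would put 0.337 sites in a gene of this length.

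In the double knockout the same stretch was listed again and 13 more sites appeared along the gene. The 14 sites (7.65 to 23.5) amount to 29.0 per Mb, where chromosome 18 as a whole had 1.97 per Mb, a rate that would give 0.950 sites in FHOD3. The gene covers 0.601% of the annotated span of chromosome 18 and held 8.86% of its 158 double-knockout sites, and 1.79% of its 56 wild-type sites. Of 20037 protein-coding genes 6 had at least 14 double-knockout sites (0.0299%). Among the 891 genes with exactly 1 wild-type site FHOD3 had the most double-knockout sites. The median there was 1 and the next highest count 11. All these comparisons rest on the counts that chose the gene, and nothing is read from them.

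**Figure D1:**
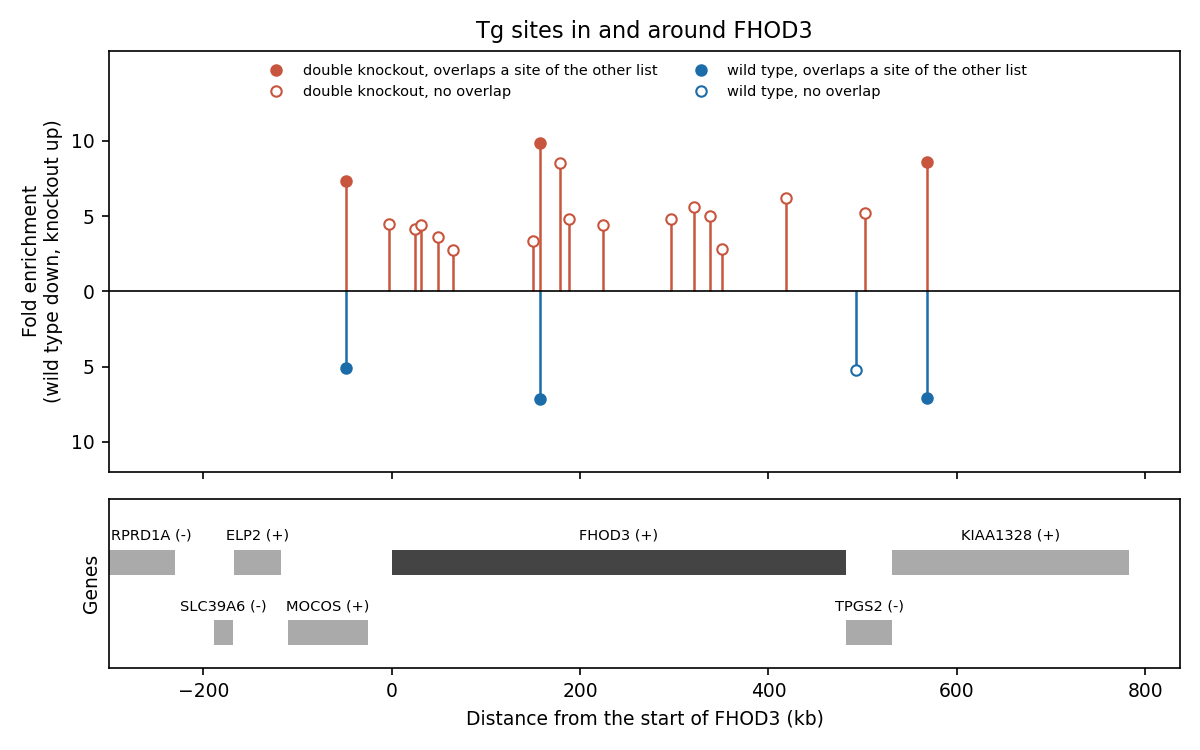
Tg sites by distance from the start of FHOD3 (x axis, kb) and fold enrichment (y axis, a ratio, double knockout upwards and wild type downwards). Filled points overlap a site of the other list and open points do not; bars below are protein-coding genes with their strand. The 14 double-knockout sites inside FHOD3 face a single wild-type site at 157 kb.

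The 14 sites, numbered from the start of the gene, fell into 4 runs with empty stretches between them. Site 1 (36322276 to 36322886) lay 24.9 kb into the gene, was 611 bp wide and had a fold of 4.14 with 18 reads (10.7 to 28.4). Site 2 (36328194 to 36329060) was the widest, 867 bp, with a fold of 4.41 and 21 reads (13.0 to 32.1). Site 3 (36346492 to 36346764) was 273 bp wide with a fold of 3.63 and 20 reads (12.2 to 30.9). Site 4 (36362241 to 36362560) had the lowest fold of the gene, 2.72, and 18 reads on a background of 5.98. All of this opening run had folds below the median of the double-knockout list, 4.93.

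After 85.1 kb without a site came the run with the strongest sites. Site 5 (36447353 to 36447610), 258 bp wide, had a fold of 3.34 and 21 reads. Site 6 (36454068 to 36454454) had the highest fold of the gene, 9.86, with 36 reads (25.2 to 49.8), and is the site that overlaps the wild-type one. Site 7 (36476965 to 36477349) had the most reads of the gene, 45 (32.8 to 60.2), and a fold of 8.55. These neighbours, 22.9 kb apart, ranked 125 and 98 by q in the whole double-knockout list. Site 8 (36485917 to 36486238, fold 4.80, 21 reads) and site 9 (36521268 to 36521677, fold 4.40, 20 reads) closed the run at ordinary levels.

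The remaining sites lay in the later part of the gene. Site 10 (36593093 to 36593503) had a fold of 4.81 and 21 reads, and site 11 (36618718 to 36619062) a fold of 5.60 and 19 reads. Site 12 (36635477 to 36635786) had the fewest reads of the gene, 16 (9.15 to 26.0), on its lowest background, 2.39, and so a fold of 5.01. Site 13 (36648073 to 36648499) was the reverse, with 23 reads on the highest background, 7.57, and a fold of 2.80. Site 14 (36716482 to 36717237), 756 bp wide with a fold of 6.21 and 25 reads (16.2 to 36.9), stood alone, and the last 63.4 kb of the gene held none. Cut into 4 equal parts of 121 kb, FHOD3 held 4, 5, 4 and 1 sites. Exons and introns were not used here, so the sites are placed in the gene body only.

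Neighbouring sites in FHOD3 stood at uneven distances. The 13 distances between midpoints had a median of 18.0 kb and ran from 6.05 kb to 85.1 kb. Evenly placed sites would stand 34.5 kb apart. Uneven distances can have a median below their mean without clustering, so the difference from 34.5 kb shows none. Of these distances 7 were under 20 kb and 3 were over 60 kb (68.6, 71.8 and 85.1 kb). Over the double-knockout list the median distance between neighbours was 95.5 kb, with 20.7% under 20 kb, and on chromosome 18 it was 109 kb with 15.9%. Distances within a gene picked for holding many sites must be short, so they were set beside those of the 16 genes with at least 10 double-knockout sites, whose medians ran from 13.8 to 120 kb. Among these PTPRN2, a receptor-type phosphatase gene (13.8 kb), and GSE1 (17.9 kb) were tighter than FHOD3. The median of FHOD3 became 30.5 kb with sites of −log10 q of at least 5 and 28.1 kb with sites within 10 kb of each other counted as 1.

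In width and strength the sites of FHOD3 were ordinary for their list, but they stood on more reads. Their widths had a median of 386 bp (258 to 867) against 409 bp over the list, and 3 of 14 were 600 bp or wider against 22.2% of the list. The summits of these 3, sites 1, 2 and 14, lay in the later part of the site, 442, 735 and 518 bp from its start. The median fold was 4.61 (2.72 to 9.86), below the list's 4.93 with 5 of 14 sites above it. The median −log10 q was 5.98 against 5.88. The median number of reads was 21, against 17 over the list, and 13 of 14 sites had more than 17. These values come from the list that chose the gene and are descriptions.

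**Figure D2:**
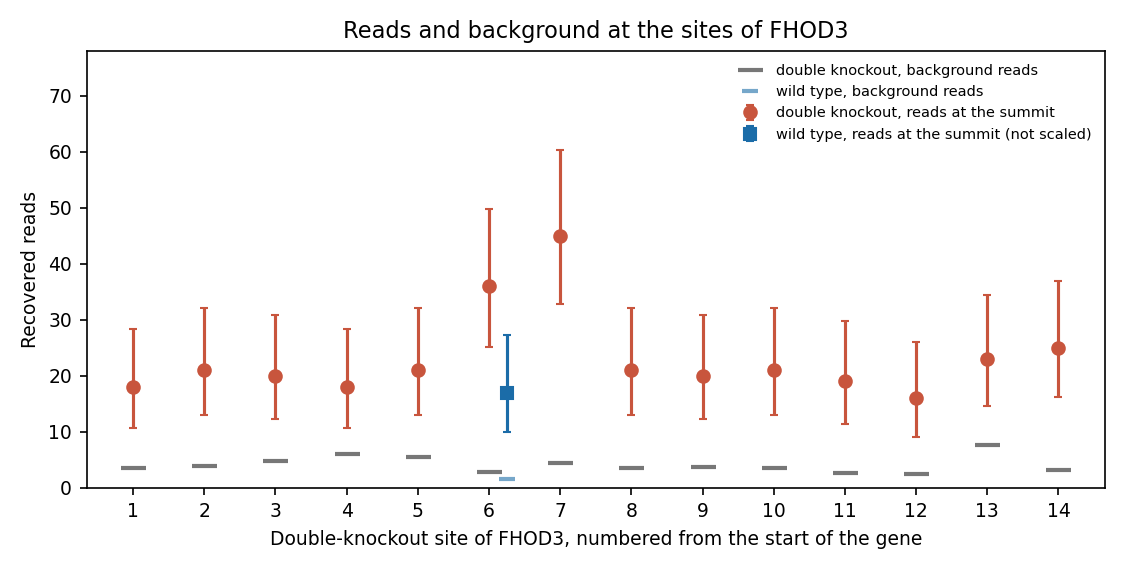
Recovered reads at the summit (y axis, reads) of the 14 double-knockout sites of FHOD3 in order along the gene (x axis), with 95% Poisson intervals as bars and the background as short lines; the wild-type site is drawn beside site 6 with its own reads. Sites 6 and 7, with 36 and 45 reads, stand above the other sites, which have 16 to 25.

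The background under these sites was high. Divided by the lowest background of the list, taken here as the caller's genome-wide rate, it had a median of 2.94 in FHOD3 (1.91 to 6.05) against 2.12 over the list. It was above the list's median at 12 of 14 sites (49.9% of the list were), and 80.1% of the list lay below the FHOD3 median. In the double knockout the raised level extended beyond the gene. The 27 other double-knockout sites within 2 Mb of the start of FHOD3 had a median of 3.18 (1.63 to 7.00), and the 117 on the rest of chromosome 18 a median of 1.59. In the wild-type list, whose median was 2.35, the background was 3.02 (1.63 to 6.71) at 11 other sites within 2 Mb and 1.68 at 44 sites on the rest of the chromosome. Of the other sites within 2 Mb, a single gene, CELF4, held 5 of the 11 wild-type and 11 of the 27 double-knockout ones. These medians therefore rest in part on that gene. The single wild-type FHOD3 site, at 2.04, lay below the list's median. A higher background asks for more reads before a site is listed. The part of the raised background in the site counts was not tested, and the number of DNA copies of this region in each line was not used here.

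**Figure D3:**
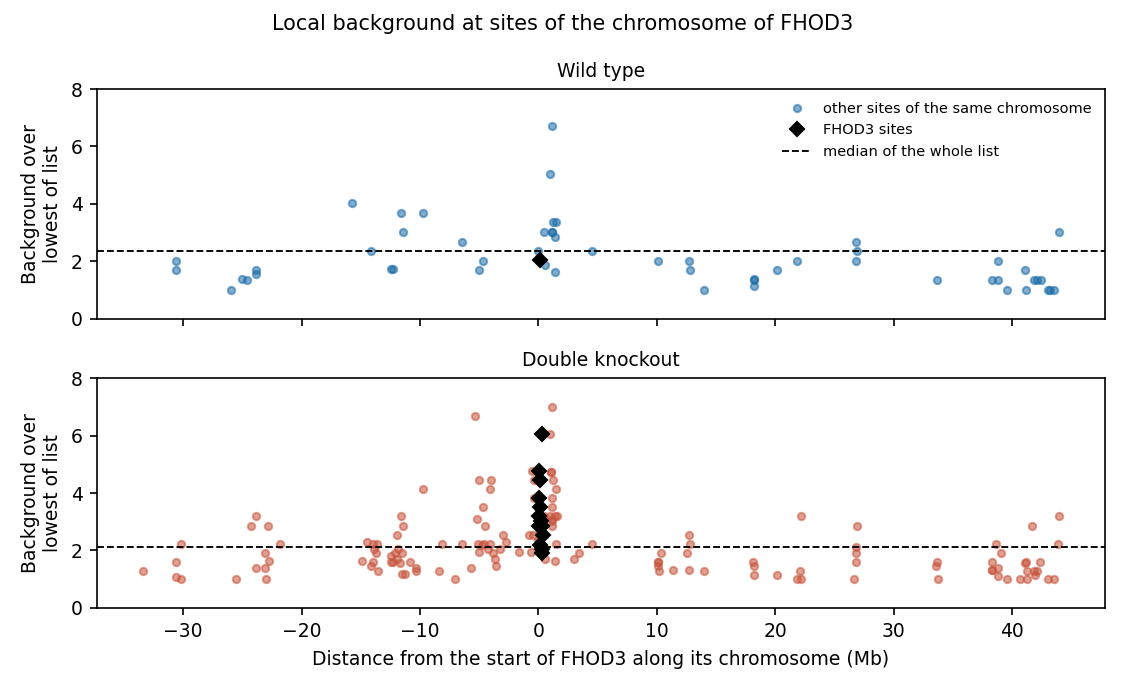
Background of each chromosome 18 site over the lowest background of its list (y axis, a ratio) by distance from the start of FHOD3 (x axis, Mb), with wild type above and double knockout below; diamonds are FHOD3 sites and the dashed line is the median of the whole list. The other sites within 2 Mb of the start of FHOD3 have medians of 3.02 and 3.18, and those farther away on the chromosome 1.68 and 1.59. Of those within 2 Mb, 5 wild-type and 11 double-knockout sites lie in CELF4.

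The lowest backgrounds of the wild-type and double-knockout lists, 0.739 and 1.25 reads, have a ratio of 1.69. Read totals are unknown, so this ratio stood in for depth. Dividing reads and background of each double-knockout site by this ratio, with reads rounded down, 12 of 14 FHOD3 sites still reached the lowest −log10 p of the wild-type list, 3.79, against 85.8% of the double-knockout list. Sites 4 and 13, with 2.96 and 3.62, did not. With each lowest background first divided by the narrowest site width of its list, taken as the fragment length, the ratio was 1.61. By it 13 of 14 reached 3.79, against 8191 of the 9373 sites of the double-knockout list. Site 4 alone stayed under (3.31). At the stricter median of the wild-type list, 8.46, the scaled sites left were 6, 7 and 14, 3 of 14 against 19.4% of the list. The wild-type list has a site at the place of site 6 and none at the places of sites 7 and 14.

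Of the sites in the gene, 1 of 14 overlapped a wild-type site (7.14%), where the share in the double-knockout list was 28.3%. FHOD3 was chosen for a single wild-type site, so this count follows from the choice and nothing is read from it. In the window it was 3 of 18 (16.7%), and from the other side 3 of 4 wild-type sites overlapped a double-knockout site, against 75.3% of the wild-type list. The overlap of the list rises with strength. Sites of −log10 q under 5 overlapped in 11.2% of cases, those from 5 to 10 in 27.3% and those of at least 10 in 65.9%, and FHOD3 had 5, 6 and 3 sites in these classes, with site 6 the only one overlapped. A gene chosen for 1 wild-type site leaves nearly all its others without a partner, and site 7 was the strongest of these. Its −log10 q was 24.8, its scaled reads 26.6 and its scaled −log10 p 18.0, and the nearest wild-type site lay 22.6 kb away, at site 6. Of the 193 double-knockout sites with a −log10 q of at least 20, 185 overlapped a wild-type site (95.9%), and site 7 is 1 of the 8 that did not. By q it ranked 3 among the 6724 double-knockout sites that overlap nothing in wild type.

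At the shared sites of the window scaled reads differed between the genotypes by less than their counting error. At site 6 the 17 wild-type and 36 double-knockout reads, 21.3 after scaling, gave a ratio of 1.25 (exact interval 0.685 to 2.38, counting error only), and the summits were 60 bp apart. In MOCOS, the gene of the molybdenum cofactor sulfurase that ends before FHOD3 begins, the wild-type site at 36249056 to 36249306 had 13 reads and the double-knockout site at 36249020 to 36249735 had 28. The ratio was 1.27 (0.638 to 2.68) and the summits were 12 bp apart, although the double-knockout site was 716 bp wide and the wild-type one 251 bp. In KIAA1328, the gene after TPGS2, the sites at 36865719 to 36866204 and 36865742 to 36866230 had 16 and 26 reads, a ratio of 0.960 (0.496 to 1.92) with summits 111 bp apart. Scaled by 1.61 in place of 1.69, the ratios were 1.32, 1.34 and 1.01. The intervals of the 3 pairs include 1 and span 0.496 to 2.68, so a ratio as low or as high as these bounds is not excluded by the reads.

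Around the gene the wild-type and double-knockout sites were few, 3 and 4. The double-knockout list is 2.54 times as long as the wild-type list, and counts this small cannot be compared with that ratio. The difference inside the gene was what chose it, so it is not read against the outside. TPGS2, which encodes a subunit of the tubulin polyglutamylase complex and runs towards FHOD3 from the other side, held 1 site in each list that did not overlap. The wild-type one (36790920 to 36791172, fold 5.26, 16 reads) lay 10.8 kb past the end of FHOD3, and the double-knockout one (36799298 to 36799643, fold 5.22, 25 reads) began 8.12 kb farther on. A double-knockout site between genes at 36294608 to 36295031 (424 bp, fold 4.46, 23 reads) had its midpoint 2.89 kb before the start of FHOD3. It is the nearest site to the start of the gene and has no wild-type partner. With the MOCOS and KIAA1328 pairs the wild-type list had 3 sites in the 600 kb outside FHOD3 and the double-knockout list 4. That is 5.00 per Mb (95% Poisson interval 1.03 to 14.6) and 6.67 per Mb (1.82 to 17.1), where chromosome 18 had 0.698 and 1.97 and FHOD3 itself 2.07 and 29.0. The window was chosen with these lists known, so these rates are descriptions, and their difference from the chromosome rate was not tested.

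The other genes of the window held at most 1 site per list. Of 14 annotated genes in it, 7 coding for protein, 4 held a site. RPRD1A, which encodes a binder of RNA polymerase II, the zinc transporter gene SLC39A6 and the Elongator subunit gene ELP2 held none. Over all protein-coding genes the shares holding any were 5.88% (wild type) and 14% (double knockout). Single sites gave MOCOS 1.18 and TPGS2 2.04 per 100 kb in either list. Both are above the rates over all protein-coding genes, 0.131 (wild type) and 0.351 (double knockout). The 0.248 of KIAA1328 lies between those rates. These differences were not tested. KIAA1328 is close to FHOD3 in length, 403 kb against 483 kb (part of it beyond the window), and held 1 site in each list, 0.248 per 100 kb, where FHOD3 held 0.207 (wild type) and 2.90 (double knockout). After the KIAA1328 site the double-knockout list had no site for 399 kb, up to CELF4, a neuronal RNA-binding protein gene. Before the MOCOS site it had none for 287 kb. The closest sites left outside the window were double-knockout ones 35.0 kb before it (35962563 to 35962821, fold 3.65, 23 reads) and 185 kb after it (37264817 to 37265315, fold 5.38, 26 reads). In wild type they were 4413 kb before and 204 kb after. Within 2 Mb of the start of FHOD3 lay 12 wild-type and 41 double-knockout sites. CELF4, named here after its values were seen, held 5 and 11 of them.

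The ranks of FHOD3 among long genes restate the 2 counts that chose it, so nothing is read from their difference. Of 1399 protein-coding genes of at least 200 kb it ranked 8 by double-knockout sites per 100 kb and 245 by wild-type sites per 100 kb, among 304 that had a wild-type site at all. By the straight-line distance between the pairs of densities, over 2 lists, the nearest genes were MUC16, SORCS2 and LINGO1. MUC16, a large cell-surface mucin gene of chromosome 19, had 1 and 7 (0.461 and 3.23 per 100 kb, distance 0.413). SORCS2, a sortilin-family receptor gene, held 3 and 14 (0.545 and 2.54, distance 0.492). LINGO1, a neuronal leucine-rich repeat protein gene, held 1 and 5 (0.481 and 2.41, distance 0.567).

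**Figure D4:**
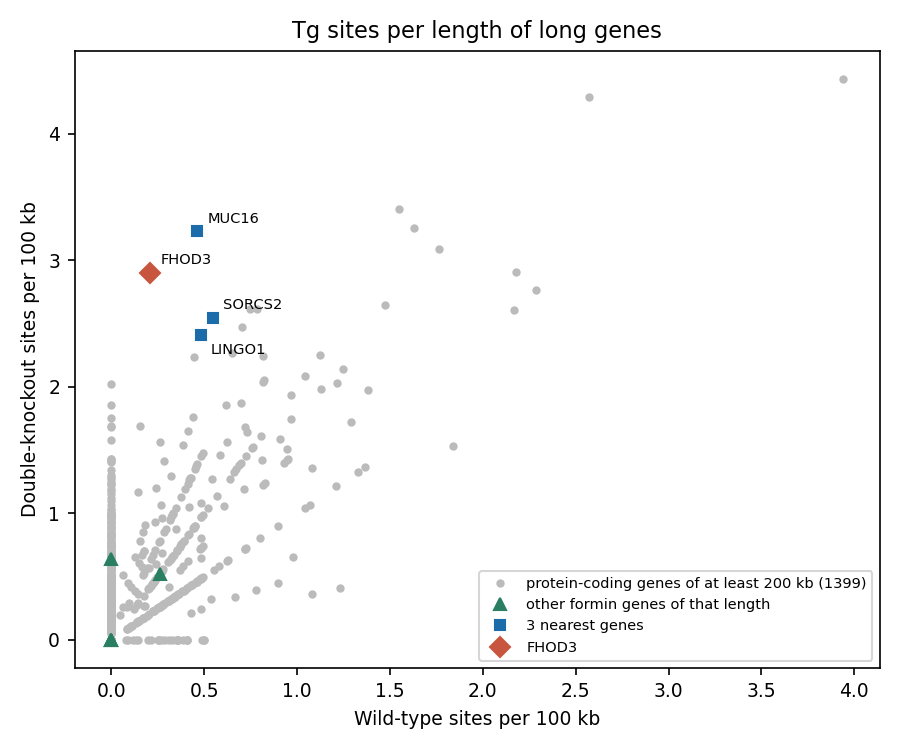
Wild-type (x axis) against double-knockout (y axis) sites per 100 kb for the 1399 protein-coding genes of at least 200 kb (grey), with FHOD3 (diamond), its 3 nearest genes (squares) and the other formin genes of that length (triangles). FHOD3 lies at 0.207 and 2.90, and the triangles lie at or below 0.261 and 0.636. The gene was chosen for the difference between its counts, so its place on the plot follows from the choice.

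FHOD1 was free of sites. It spans 18.1 kb, in which the rate of chromosome 16 would put 0.0381 wild-type and 0.0796 double-knockout sites, so its empty lists say little about it. The nearest wild-type site was 295 kb away and the nearest double-knockout site 55.7 kb. Within 300 kb of FHOD1 the double knockout had sites in NOL3 (67173388 to 67173662, fold 3.49, 15 reads), between genes (67385568 to 67385962, fold 4.72, 15 reads) and in RIPOR1 (67542378 to 67542897, fold 4.22, 15 reads). The RIPOR1 site overlapped the single wild-type site there (67542693 to 67542935, fold 3.65, 9 reads).

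The formins were taken as a list of 14 genes, which need not hold the whole family. Wild-type sites fell in 3 of these 14, and in 5.88% of protein-coding genes. Double-knockout sites fell in 5 of the 14, and in 14% of protein-coding genes. Site-free in both lists were 9 of 14 formins (64.3%) and 85.2% of protein-coding genes. FHOD3, chosen for its sites, is counted among the 14. Without it wild-type sites fell in 2 of 13 formins and double-knockout sites in 4 of 13, and 69.2% were site-free. These shares were not adjusted for gene length. Without FHOD3 the density of the listed formins was 0.0951 sites per 100 kb in wild type (0.131 over all protein-coding genes). In the double knockout it was 0.222 (0.351 over all). DAAM2, a formin of the Wnt and planar polarity pathways, held 2 sites in each list. Its wild-type sites at 39844839 to 39845258 (fold 8.53, 16 reads) and 39845386 to 39845690 (fold 4.33, 13 reads), on chromosome 6, were both overlapped by a single double-knockout site of 903 bp (39844868 to 39845770, fold 9.12, 23 reads). The other DAAM2 site of the double knockout (39835918 to 39836365, fold 5.01, 12 reads) had no partner.

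FMN2, a formin with a role in oocyte division, held 1 wild-type and 2 double-knockout sites. The shared one, at 240184892 to 240185222 on chromosome 1 in wild type (fold 3.51, 26 reads) and 240184836 to 240185093 in the double knockout (fold 2.47, 31 reads), stood on a background 9.06 and 9.55 times the lowest. FMNL2, a formin of cell protrusions, held 2 double-knockout sites with folds of 4.01 and 3.82, and INF2, a formin that also severs filaments, held 1 with a fold of 5.80, 5.18 kb from its start. None of these 3 had a wild-type partner. DIAPH2 (920 kb) and DIAPH3 (498 kb), both longer than FHOD3, and FMN1 (429 kb) held none in either list.

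Sarcomere genes, taken because FHOD3 is best known from the sarcomere of heart muscle, held at most 1 site each. Of 18 genes of the thin filament, Z-disc and thick filament, wild-type sites fell in 2 and double-knockout sites in 5, with no gene in common. Site-free in both lists were 11 of the 18 (61.1%) against 85.2% of protein-coding genes. Over all protein-coding genes a wild-type site was found in 5.88% and a double-knockout site in 14%, and of the 1179 genes with a wild-type site 1019 also had a double-knockout one (86.4%). None of these shares was adjusted for gene length. Per 100 kb the 18 sarcomere genes held 0.122 sites in wild type, against 0.131 over all protein-coding genes. In the double knockout the 2 values were 0.306 and 0.351. These differences were not tested. The double-knockout sites lay in ACTN2, the gene of sarcomeric alpha-actinin (fold 6.11, 27 reads), TNNI3, cardiac troponin I (4.75, 17 reads), MYBPC3, cardiac myosin-binding protein C (5.98, 19 reads), NEB, nebulin (4.39, 11 reads), and MYH7, a cardiac myosin heavy chain (3.54, 11 reads). In wild type they lay in TMOD1, a capping protein of thin filaments (4.80, 9 reads), and MYH6, another cardiac myosin heavy chain (4.69, 13 reads). The 281 kb of TTN, the gene of titin, and the 513 kb of NEBL, longer than FHOD3, held none.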

How the data were processed

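DPC-Seq was applied to HEK293T cells of both genotypes. The submitters' processing notes name Bowtie2, MACS2, bedtools and deepTools and build hg38; no source used here gives versions, settings or how libraries were pooled. Each genotype's list was matched by the genotype word it shares with the library titles. The deposited lists give, per site, a score (10 times −log10 q, rounded down, in 100% of rows), a fold enrichment (a ratio), −log10 p-values and −log10 q-values, and a summit offset. The deposited values were used within their own list.

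Reads and background were recovered from fold = (reads + 1)/(background + 1) and p as the upper Poisson tail beyond the read count; 100% of sites gave whole reads within 0.001 of −log10 p (background of at least 0.2; tested on simulated sites). Summit reads had medians of 13 and 17. Total reads are unknown. Genes came from RefSeq GRCh38.p14, which shares primary coordinates with hg38. Partners share at least 1 bp. Intervals are exact (95%) and cover counting error only. Named genes were those of the window, 14 formins, 18 sarcomere genes and the 3 long genes nearest in site density. Members and lists were chosen with earlier results of these data known. SciPy 1.17.1 and pandas 2.3.3 were used. Alternatives are given in the closing section.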

Additional observations from a re-analysis of the deposited data

How the results depend on the processing

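No paired analysis was possible because each genotype has 1 deposited list with no value per library, and for the same reason no replicate could be left out. Of 46 alternatives over 11 results, 34 stayed within 1.5 times the reported value. The 14 double-knockout sites of FHOD3 became 9 with −log10 q of at least 5 and 9 above the wild-type median −log10 p. Of the 9373 double-knockout sites 3715 had a −log10 q under 5, and 5367 lay above that median. Scaled by the background ratio and held to that median, a setting chosen after seeing the data, FHOD3 kept 3 and the window 5, by either divisor. The wild-type count in FHOD3 was 1 in every setting run. Flanks of 1 Mb gave 11 wild-type and 37 double-knockout sites. With edges within 10 kb counted as partners, 5 double-knockout sites of the window had one. The median spacing was 30.5 kb with −log10 q of at least 5 and 28.1 kb with close sites joined. FHOD1 with 300 kb on either side had 4 sites over both lists. Depth limits single sites: FHOD3 sites other than 6 and 7 have 16 to 25 reads, with lower Poisson bounds of 9.15 to 16.2.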
